A study of Mus musculus with 22 samples.

Results

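Constitutive strong H3K27ac regions are stretches of the mouse genome where acetylation of histone H3 at lysine 27 was high and nearly even in all 6 H3K27ac libraries of induced pluripotent stem (iPS) cells made with 3 factor sets. They were chosen from the values themselves. A region of chromosomes 1 to 19 without 8 was a member when its normalized read count was at least 200 in each of the 4 libraries of the C2 against OSKM table and of the C3 against OSKM table, and when the largest of the 4 was less than 1.5 times the smallest in both. The rule kept 1912 regions, 1.53% of the 125232 regions on those chromosomes (135566 in all) and 21.6% of the 8855 regions that passed the 200 threshold alone. The other 6943 regions above the threshold are called other strong regions here.

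All lines were C57BL/6 mouse embryonic fibroblasts transduced with factor combinations and cultured with leukemia inhibitory factor. C2 cells received ZFATF1, ZFATF2 and ZFATF3, artificial transcription factors, C3 cells received ZFATF1, ZFATF2 and ZFATF4, and OSKM cells received Oct4. All 3 lines also received Sox2, Klf4 and c-Myc, so these 3 factors were shared by every group, and the iPS cells were given 100 nM 4-hydroxytamoxifen to switch on an Oct4-MerCreMer; Tomato/GFP reporter. Each line gave 2 libraries for H3K27ac and 2 for H3K9me3. C2 and OSKM shared 1 pair of input libraries and C3 had its own pair. HA-tagged artificial factors were mapped in 2 libraries of C2 cells on day 20 after transduction, when the cells still made these factors and were not fully reprogrammed, and in 2 libraries of day 20 cells that had received an empty vector in place of them. The labels do not say whether replicate libraries came from separate cultures or how many clones stand behind a line.

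H3K27ac is placed by p300 and CBP and marks active promoters and enhancers, where it neutralises a positive charge on the histone tail and is read by bromodomain proteins. Promoters of genes that every cell uses carry it in most cell types, whereas enhancers carry it in a cell-type-specific way, and in pluripotent cells the widest domains lie at genes such as Pou5f1 and Nanog. H3K9me3 is a mark of heterochromatin, placed in embryonic stem cells mainly by Setdb1 and the Suv39h enzymes, and is low at active promoters.

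The members held 1199 of the 29954 promoters that the RefSeq table for GRCm38.p6 lists on the rule's chromosomes. To show what such promoters look like, 6 were taken from the strongest, the most even and the gene-list members, each for 1 motif. Each sequence is the 200 bases before the start site, 5′ to 3′ on the gene's strand, lying inside a member, with matches to the named motif in capitals on either strand. Zfp605, a zinc finger gene, shows the ETS motif (CCGGAAGT) at chr5:110109892-110110091, plus strand. Psmd5, an assembly chaperone of the proteasome, shows the ZBTB33 motif (TCTCGCGAG), whose matches on both strands overlap in each of its pair of capital runs, at chr2:34870963-34871162, minus strand. Dgka, a diacylglycerol kinase, shows an E-box (CACGTG) at chr10:128737613-128737812, minus strand. Mlec, a lectin of the endoplasmic reticulum, shows NFY boxes (CCAAT) at chr5:115158177-115158376, minus strand. Hk1os, antisense to the hexokinase gene Hk1, shows an SP/KLF box (GGGCGG) at chr10:62340034-62340233, plus strand. Snrpa, a U1 snRNP protein, shows a CRE (TGACGTCA) at chr7:27196272-27196471, minus strand.
Zfp605: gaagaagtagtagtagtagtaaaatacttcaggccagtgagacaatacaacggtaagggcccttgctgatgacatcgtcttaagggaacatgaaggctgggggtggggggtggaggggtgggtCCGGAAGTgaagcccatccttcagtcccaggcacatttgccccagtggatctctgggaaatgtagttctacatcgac
Psmd5: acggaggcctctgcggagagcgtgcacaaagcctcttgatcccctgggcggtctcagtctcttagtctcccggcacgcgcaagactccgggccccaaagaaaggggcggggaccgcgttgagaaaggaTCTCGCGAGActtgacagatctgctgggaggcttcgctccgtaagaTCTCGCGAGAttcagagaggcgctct
Dgka: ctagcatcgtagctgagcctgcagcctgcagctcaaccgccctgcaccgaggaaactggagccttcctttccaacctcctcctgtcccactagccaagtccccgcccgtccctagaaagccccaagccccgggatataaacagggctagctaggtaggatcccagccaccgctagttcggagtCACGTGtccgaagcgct
Mlec: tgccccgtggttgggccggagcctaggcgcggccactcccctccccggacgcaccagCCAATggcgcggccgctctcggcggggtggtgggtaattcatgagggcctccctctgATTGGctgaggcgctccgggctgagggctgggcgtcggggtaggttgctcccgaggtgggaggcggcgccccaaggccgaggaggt
Hk1os: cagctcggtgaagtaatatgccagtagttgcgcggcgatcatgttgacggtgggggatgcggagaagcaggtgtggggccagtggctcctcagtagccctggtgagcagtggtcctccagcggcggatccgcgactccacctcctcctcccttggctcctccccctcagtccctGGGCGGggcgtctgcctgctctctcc
Snrpa: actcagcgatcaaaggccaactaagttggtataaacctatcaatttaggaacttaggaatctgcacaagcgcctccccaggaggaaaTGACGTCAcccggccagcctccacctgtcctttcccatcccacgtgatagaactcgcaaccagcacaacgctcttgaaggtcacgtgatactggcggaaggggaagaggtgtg

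The member over the Zfp605 promoter had normalized read counts of 856 and 751 in C2 and 1047 and 1073 in OSKM, and of 1098 and 924 in C3 and 1138 and 1168 in OSKM in the other table. The member over Psmd5 had 446 and 455 in C2 and 485 and 546 in OSKM, and its C3 values were 606 and 444 beside 527 and 594 in OSKM. At both promoters C2 lay below OSKM, whereas the C3 libraries lay below OSKM at Zfp605 and on either side of it at Psmd5.

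Members also hold microRNA genes, and 12 of them (0.628%, against 0.691% of other strong regions and 0.166% of all regions) contained a listed hairpin. The mature 5′ arms of those at 3 clusters and 1 single hairpin are shown so that the seeds, bases 2 to 8 in capitals, can be compared within each cluster. miR-195a and miR-497a lie at chr11:70231972-70235465 and have the same seed, AGCAGCA, that of the miR-15 and miR-16 family. miR-183 and miR-96 lie at chr6:30166271-30171343 with seeds that differ at their first base, and miR-191 and miR-425 lie at chr9:108565772-108569807 with unrelated seeds. miR-205, known from epithelia, lies at chr1:193506981-193515709.
miR-195a-5p: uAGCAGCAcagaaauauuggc
miR-497a-5p: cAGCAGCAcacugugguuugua
miR-183-5p: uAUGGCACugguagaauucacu
miR-96-5p: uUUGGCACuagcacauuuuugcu
miR-191-5p: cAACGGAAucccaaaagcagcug
miR-425-5p: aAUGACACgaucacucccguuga
miR-205-5p: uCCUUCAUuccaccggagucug

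The region over Mir205 had 843 and 788 normalized reads in C2 and 759 and 758 in OSKM, and 1182 and 1148 in C3 against 825 and 824 in OSKM. Both C2 and both C3 libraries lay above OSKM there. The Mir195a and Mir497 region had 492 and 430 in C2 against 533 and 533 in OSKM, and 563 and 465 in C3 against 579 and 580. All C2 and C3 libraries lay below OSKM at that region. The H3K27ac value belongs to the whole region, and says nothing of which hairpin in it was transcribed.

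Values are the authors' DiffBind normalized read counts of each region, set in each table by a scale per library at which 1 read counted between 0.837 and 1.28. Members had median values of 351 and 318 in the 2 C2 libraries and 360 and 369 in OSKM. In the C3 table the medians were 421 and 367 in C3 and 391 and 401 in OSKM. The other strong regions had medians of 469 and 370 in C2, 586 and 591 in OSKM, 673 and 507 in C3, and 637 and 643 in OSKM of the C3 table. The second C2 library was the lowest of the 4 in 65.2% of members and 79.2% of other strong regions. The second C3 library was the lowest in 53.3% and 66.4%. These 2 libraries also had the fewest reads in regions, 7033486 and 10857991, against 12400030 to 17649231 in the other 4.

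**Figure D1:**
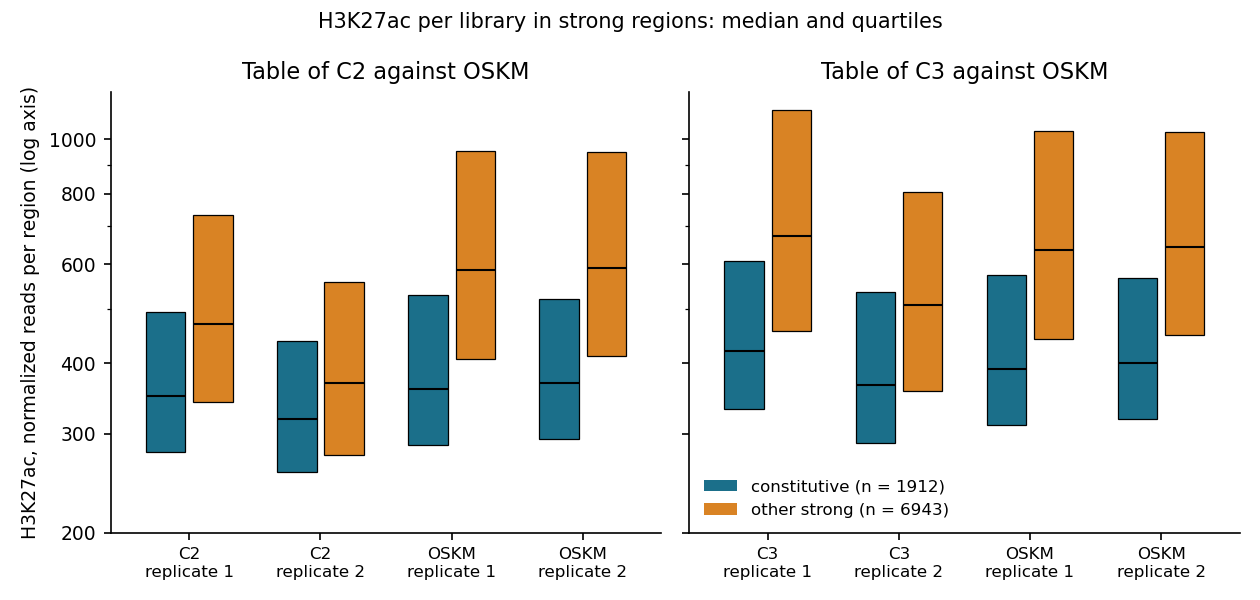
Normalized read counts of the members and of the other strong regions in each H3K27ac library of the C2 against OSKM and C3 against OSKM tables (log axis), drawn as the median with the span of the middle 50% of regions. Member medians lay between 318 and 421 in every library, and those of the other strong regions between 370 and 673.

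Because the rule used these values, their evenness is a description of the members and was not tested. The median ratio of largest to smallest library was 1.31 in the C2 table and 1.32 in the C3 table, against 1.76 and 1.65 in the other strong regions. In the C2 against C3 table, which the rule did not read but which holds the same libraries, the median was 1.34, and 1553 members (81.2%) were below 1.5 there too. The log2 ratio of line means had a member median of -0.15 for C2 over OSKM and -0.01 for C3 over OSKM, against -0.54 and -0.21 in the other strong regions. The 2 C2 replicates differed by a median of 0.19 (absolute log2 ratio), the C3 replicates by 0.25 and the OSKM replicates by 0.10.

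Both C2 libraries were below both OSKM libraries in 883 members (46.2%) and above both in 152, where 21.0% and 23.3% of all regions did so. Both C3 libraries were below both OSKM libraries in 466 members (24.4%) and above in 353, where 21.5% and 25.8% of all regions did so. The 2 comparisons share the OSKM libraries and the rule bounded these ratios, so nothing is read from the counts.

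Members were of middling strength and width. Their mean over the 8 values had a median of 370 and ran from 215 to 2739, and the other strong regions had a median of 560. Median width was 3260 bp (1260 to 19200 bp), against 4163 bp in other strong regions and 1001 bp over all regions, and the mean per 1000 bp was 121, 148 and 33.0. With strong regions in 4 equal groups by their mean, 43.5% of the weakest group were members, and 19.7%, 14.6% and 8.54% of the next ones. Only 36 members (1.88%) were 10000 bp or wider, against 432 (6.22%) of the other strong regions. A peak was called by the authors in all 6 libraries at all 1912 members and at 6939 of the 6943 other strong regions, but at 26.0% of all regions.

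**Figure D2:**
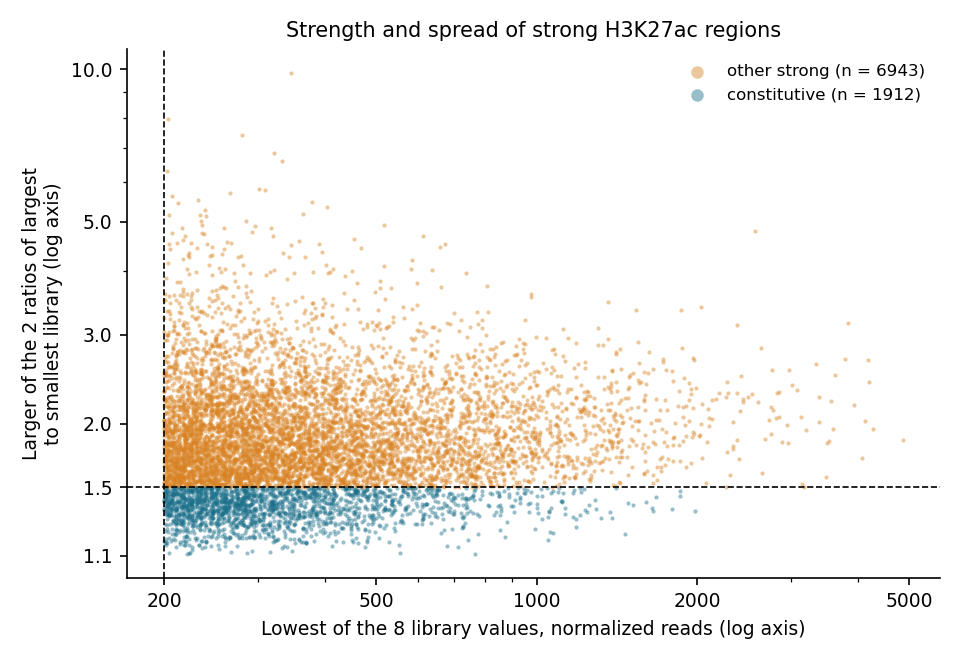
Each strong region by the lowest of its 8 normalized read counts (x, log axis) and the larger of its ratios of largest to smallest library (y, log axis), with dashed lines at the thresholds of 200 and 1.5 and separate colours for the 1912 members and the 6943 other strong regions. Members lie in the lower left, and the regions with the highest lowest values lie above the ratio threshold.

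The highest mean, 2739, was at Jup (plakoglobin, of desmosomes and adherens junctions), chr11:100382276-100397791, a 15516 bp region that holds the Jup start site. It had 2543 and 1857 normalized reads in C2 and 2679 and 2528 in OSKM, and 3611 and 3036 in C3 against 2911 and 2750 in OSKM. The C2 and OSKM values overlapped at Jup, and both C3 libraries lay above OSKM. Tanc1, a scaffold protein of synapses, followed with a mean of 2541 at chr2:59620205-59636198, inside the gene and away from its start. Its values were 2160 and 1980 in C2 against 2666 and 2371 in OSKM, and 3056 and 2619 in C3 against 2896 and 2579. C2 lay below OSKM at Tanc1, and C3 and OSKM overlapped. Actn1 (alpha-actinin, an actin crosslinker) had the widest member, 19200 bp at chr12:80208306-80227505, with 1951 and 1792 in C2 against 2431 and 2075 in OSKM and 2962 and 2306 in C3 against 2641 and 2257, in the same order as at Tanc1.

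The other members among the 10 strongest lay at Agpat4 (2495), an acyltransferase of phospholipid synthesis, Dgka (2416), Jmjd1c (2258), a Jumonji-domain protein, Hspg2 (2221), which encodes perlecan of the basement membrane, Usp7 (2081), a deubiquitinase, and Mlec (1825), and 1 at chr5:53500171-53512913 (1857) had no gene within 2500 bp. Of the 10, those at Jup, Dgka, Hspg2 and Mlec held a start site of the gene they are named after. At Dgka the C3 values of 3441 and 2452 reached on either side of the OSKM values of 2509 and 2608, and the C2 values of 1938 and 1673 lay below 2309 and 2398.

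The most even members were close in all 8 values. At Hk1, a hexokinase that starts glycolysis, the region chr10:62334590-62341455 had 765 and 849 in C2, 810 and 781 in OSKM, and 939 and 940 in C3 against 880 and 850 in OSKM. Its larger ratio was 1.11, as at Ttc34, Ccdc57, Nrtn (the growth factor neurturin) and a region with no gene nearby, chr1:119328597-119335172. Of these 5, only Hk1 and the region without a gene had a mean over 600 (852 and 618), and the other 3 had means of 242, 236 and 237. Members nearest the thresholds were ordinary regions: Trpm4, Kazn and Zfp622 each had a lowest value of 200.1, and just below lay Nav1 (199.9), Znhit3 (199.6) and Gm1976 (199.2), which otherwise met the rule. The larger ratio was 1.49998 at Ptprg, 1.49997 at Slmap and 1.49948 at Gm12996, and 1.50022 at chr10:4245857-4250840, 1.50027 at Slc25a13 and 1.50028 at Tmem185b just outside.

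Most members lay at genes. A gene extent lay within 2500 bp of 87.1% of members, against 84.2% of other strong regions and 70.4% of all regions. A listed start site lay in 861 of 1894 members (45.5%), against 37.0% of other strong regions and 8.19% of all regions. Starts on both strands lay in 8.92% of members and 8.17% of other strong regions. At the far end, 5.86% of members were more than 10000 bp from any gene, against 8.11% and 18.9%. In all, 1733 of the 19622 protein-coding genes on the rule's chromosomes (8.83%) had a member within 2500 bp. Of these, 642 also had another strong region that was not a member, and 162 had at least 2 members. Members and other strong regions therefore often shared a gene.

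Several lists of basic cell functions had a member at a larger share of their genes than all protein-coding genes did. The list of general transcription factors had a member at 13 of 41 genes, among them Gtf2ird2 (mean 754), Gtf3c2 (704), Gtf2ird1 (606) and Gtf3a (603). Of these, Gtf3c2 and Gtf3a belong to the RNA polymerase III machinery. A place in the list does not show that a gene, such as the Gtf2ird genes, encodes a general factor. Replication origin and helicase proteins had 7 of 22, led by Mcm10 (519), Cdc6 (427), Orc3 (365) and Orc2 (328). RNA polymerase subunits had 7 of 26, proteasome subunits 9 of 45 with Psmd1 (881), Psmd5 (513), Psme2 (401) and Psma6 (392), and spliceosome proteins 10 of 54 with Snrpa (1104), Snrpg (479), Srsf11 (446) and Snrnp27 (332). Mitochondrial ribosomal proteins had 14 of 76 with Mrpl54 (963) and Mrps2 (862), and subunits of oxidative phosphorylation 14 of 76 with Uqcr10 (712) and Ndufb4 (599). The shares ran from 18.4% to 31.8% in these lists, beside 8.83% of all protein-coding genes. The lists also differed in how many genes had a strong region of any kind. Of genes with one, 29.6% of all protein-coding genes had a member, against 46.4% of general transcription factors, 41.2% in the replication and RNA polymerase lists, 37.5% of proteasome subunits, 34.1% of mitochondrial ribosomal proteins, 28.6% of spliceosome proteins and 28.0% of oxidative phosphorylation subunits. Lists of other kinds had a like share of all their genes, 18.8% in pluripotency and 19.4% in stem cell chromatin regulators. These counts are descriptions, and no list was tested.

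The other lists of basic functions had shares from 7.14% to 16.5%. Of genes with a strong region of any kind, 12.5% to 26.8% had a member in these lists, against 29.6% of all protein-coding genes. Among Zfp genes it was 36.8%. Cytosolic ribosomal proteins had 13 of 79, with Rps15a (817), Rps21 (736), Rpl12 (674) and Rpl23a (629), although 70 of the 79 genes had a strong region of some kind. Aminoacyl-tRNA synthetases, which charge tRNAs, had 3 of 33 (Rars2, Qars and Mars2), Mediator subunits 3 of 27 (Med21, Med18 and Med31), ubiquitin-conjugating enzymes 3 of 30 (Ube2v1, Ube2g2 and Ube2q1), nuclear pore proteins 2 of 23 (Nup160 and Nup214) and chaperones 2 of 28 (Hsp90aa1 and Cct3). Actb, which encodes beta-actin and is often used as a reference in expression assays, had a member with a mean of 1350. There C2 had 1289 and 1001 against 1300 and 1318 in OSKM, and C3 had 1758 and 1286 against 1413 and 1434. The list of translation factors had 11 of 67, with the highest mean at Eef1e1 (497). A place in the list does not show that Eef1e1 encodes such a factor. Genes of tRNA and rRNA processing and ribosome assembly had 11 of 115, led by Wdr46 (442). Zinc finger genes named Zfp had 53 of 363, led by Zfp280b (1073) and Zfp605 (1007).

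These counts turned on the scale of the libraries. After each library was scaled to the same median over strong regions, an alternative chosen after seeing the data, 4919 regions met the rule, and 1238 of the 1912 members (64.7%) remained. Cytosolic ribosomal proteins then had 62 of 79 genes with a member, proteasome subunits 24 of 45, spliceosome proteins 34 of 54 and all protein-coding genes 4357 of 19622 (22.2%). General transcription factors had 23 of 41 and aminoacyl-tRNA synthetases 18 of 33. The order of the lists thus changed with the scale. As shares of all their genes, these 5 lists were above all protein-coding genes on either scale. For aminoacyl-tRNA synthetases as deposited this was only 9.09% against 8.83%. Of genes with a strong region, 29.6% of all protein-coding genes had a member as deposited. Cytosolic ribosomal proteins (18.6%), aminoacyl-tRNA synthetases (12.5%) and spliceosome proteins (28.6%) lay below this share. Proteasome subunits (37.5%) and general transcription factors (46.4%) lay above it. After scaling all 5 lists lay above the share of all protein-coding genes, 69.7%.

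**Figure D3:**
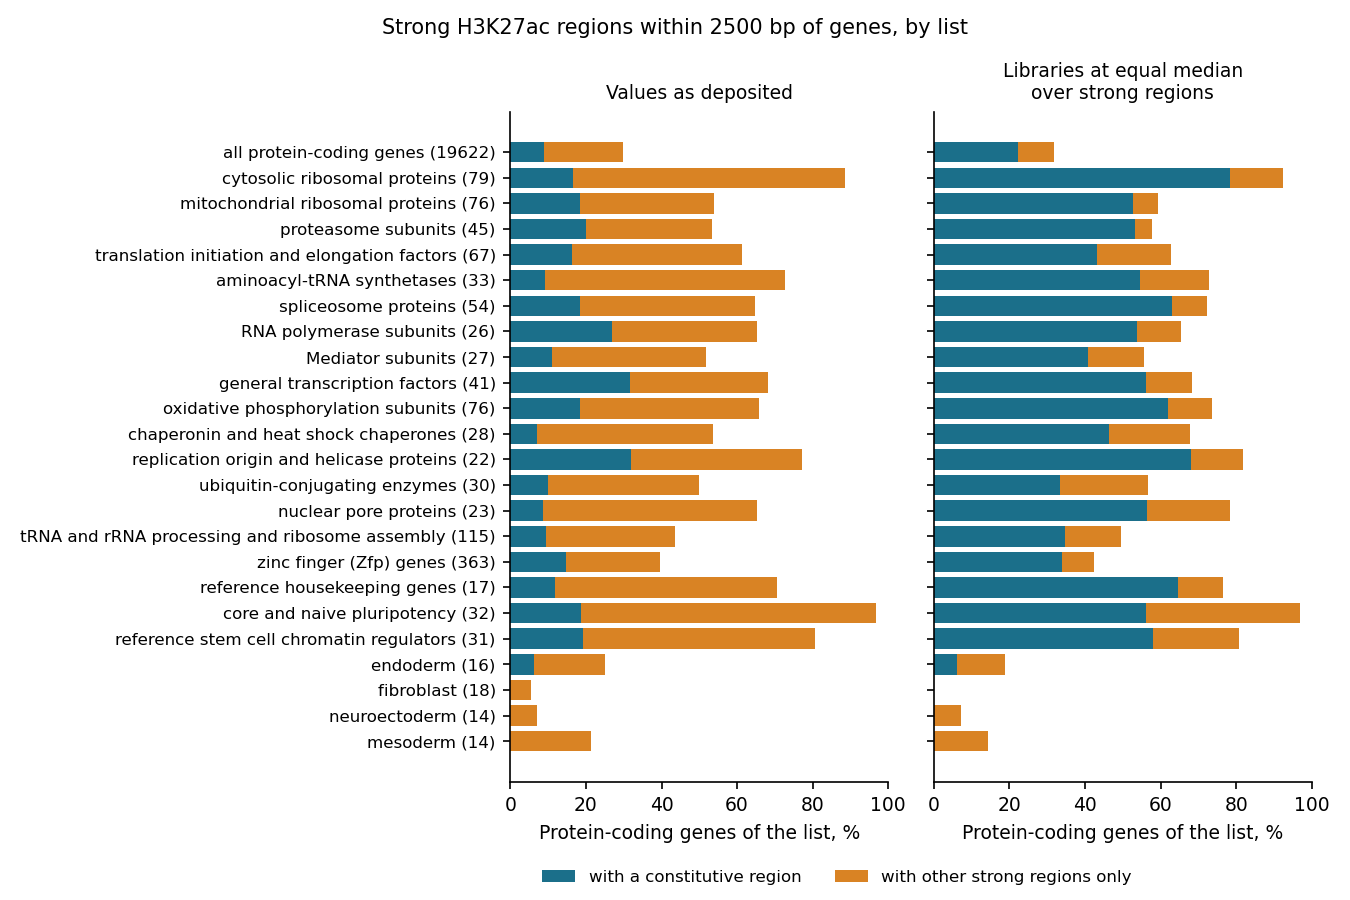
Share of the protein-coding genes of each list with a member within 2500 bp (first bar segment) or with other strong regions alone (second segment), with the values as deposited and after scaling to equal medians over strong regions; list sizes are in parentheses. General transcription factors (13 of 41) and replication proteins (7 of 22) had the highest shares as deposited, and cytosolic ribosomal proteins (62 of 79) the highest after scaling.

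On the values as deposited, most pluripotency genes had strong regions without a member among them. Of 32 genes of core and naive pluripotency, 31 had a strong region and 6 had a member: Tfcp2l1, Mybl2, Dppa4, Jarid2, Myc and Esrrb. After median scaling 18 of the 32 had a member, 58.1% of those with a strong region, where 69.7% of all protein-coding genes with one did. None of the 6 members held a listed start of its gene, but a start was listed for only 19 of the 32 genes. At Tfcp2l1, a factor of the naive state, the member chr1:118686586-118692172 had 793 and 667 in C2 against 778 and 680 in OSKM and 1016 and 780 in C3 against 846 and 740. A wider region of the same gene, 14517 bp, had 3120 and 2263 in C2 against 5121 and 4734 in OSKM, a ratio of 2.26. Esrrb, a nuclear receptor of the same network, had a member with 363 and 244 in C2 against 331 and 246 in OSKM, near the threshold at a ratio of 1.49. Its 18617 bp region had 2871 and 1973 against 5279 and 5029. Even and uneven regions therefore lay at the same gene, here and at Mybl2, Jarid2 and Myc.

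The labelled cell type was checked against marker genes. All 10 pluripotent markers had a strong region, with Dppa4 (559 and 517 in C2, 739 and 727 in OSKM, 798 and 549 in C3, 802 and 790 in OSKM) as the only one whose strongest region was a member. None of the 10 fibroblast markers had a strong region, and 3 of them had no region at all. In the wider list of 18 fibroblast genes 1 had a strong region, Vim, named after its values were seen, with 335 and 235 in C2 against 234 and 230 in OSKM and 598 and 413 in C3 against 254 and 250. Germ layer genes had 1 member, at Sparc in the endoderm list (1 of 16), whose start site lay in a region with a mean of 594. Fibroblast, neuroectoderm, mesoderm and olfactory receptor lists had 0. Of the 16 endoderm genes 14 had a region. At the strongest region of each, both C2 libraries lay above both OSKM libraries in 11 of the 14, against 23.3% of all regions. Both C3 libraries lay above both in 12 and below both in 2, against 25.8% and 21.5% of all regions. Summed over the 14 genes, the strongest regions had 6335 and 3979 normalized reads in C2 against 2610 and 3324 in OSKM. In C3 they had 11048 and 6947 against 2836 and 3616 in OSKM. Lamb1, a laminin chain of basement membranes named after its values were seen, had 774 and 378 in C2 against 26.4 and 136 in OSKM. The part of such endoderm signal in the results was not tested. In the list of chromatin regulators of stem cells, 6 of 31 had a member, among them Kmt2b (543), a methyltransferase for H3K4, Dnmt1 (460), which maintains DNA methylation, Suz12 (454), of Polycomb complex PRC2, and Arid1a (406), of the BAF remodeller.

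Promoters in members resembled those in other strong regions in base composition. A CpG observed to expected ratio of at least 0.6 over the 300 bases around the start was found in 71.6% of member promoters, 69.4% of those in other strong regions and 36.3% of all listed promoters. The SP/KLF box GGGCGG, searched on both strands as were all motifs, was in 59.6%, 56.3% and 35.9%. The ETS motif CCGGAAGT, printed above at Zfp605, was in 13.3%, 9.08% and 3.96%. The E-box CACGTG, as at Dgka, was in 12.5%, 11.7% and 7.13%, and the CRE TGACGTCA, as at Snrpa, in 3.42%, 3.67% and 1.79%. The NRF1 motif GCGCATGCG was in 3.84%, 3.92% and 1.72%. CCAAT and TATAAA were less frequent in member promoters than over all listed ones, at 32.7% against 37.2% and 6.84% against 13.7%. The octamer ATGCAAAT was in 1.33%, 1.29% and 1.72%.

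Motif shares moved with the scale too. After scaling, ETS was in 11.9% of member promoters and 7.04% of other strong ones, in the same order as before. YY1 (AAGATGGCG) was in 3.00% against 4.44% as deposited and 4.58% against 3.40% after scaling, so its order turned. ZBTB33 (TCTCGCGAG), as at Psmd5, went from 0.917% against 2.17% to 2.39% against 1.64% and turned as well. Genes that share a promoter region or a family are not independent, and no motif share was tested.

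**Figure D4:**
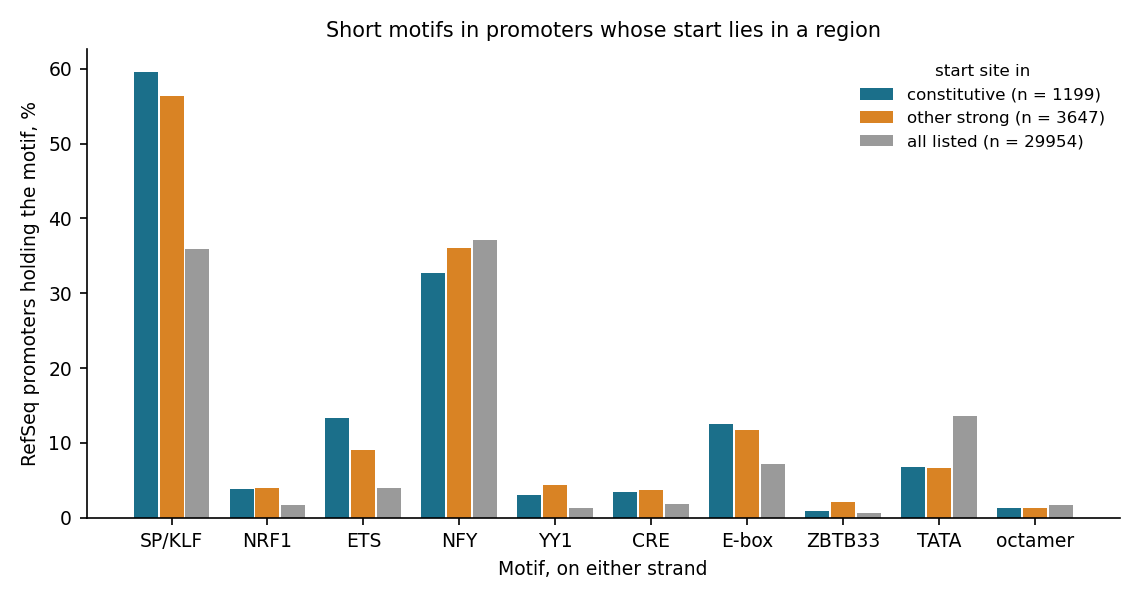
Share of promoters (300 bases around listed start sites) that hold each motif on either strand, in members, other strong regions and all listed promoters, with libraries as deposited. ETS was in 13.3% of member promoters and 9.08% of those in other strong regions, and SP/KLF in 59.6% and 56.3%.

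H3K9me3, measured in separate libraries of the same lines, was not used by the rule. Regions of H3K9me3 overlapped 73 members (3.82%), against 9.65% of other strong regions and 9.14% of all H3K27ac regions. The share was larger among stronger members, at 0.628% in the weakest of 4 equal groups and 3.14%, 4.18% and 7.32% in the next ones. Stronger members were also wider, with a median of 2399 bp in the weakest group and 5928.5 bp in the strongest. Members with an H3K9me3 region had a listed start in 28.8% of cases, against 46.1% of those without. The 73 members met 80 H3K9me3 regions, 44 of them wholly inside a member. In a mixed population of cells, fewer cells with a mark and less of it per cell cannot be told apart, nor can both marks on the same or on different cells.

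At these 80 regions, H3K9me3 was lower in C3 than in OSKM. Median normalized reads were 46.5 and 29.6 in the C3 libraries and 92.7 and 76.0 in OSKM. The authors had called a peak at 48 and 26 of the 80 regions in C3 (60.0% and 32.5%). In OSKM they had called one at 75 and 72 (93.8% and 90.0%). Over all H3K9me3 regions a peak was called at 83.2% and 47.3% in C3 and at 86.7% and 88.8% in OSKM. By limma on log2(value + 1) with Benjamini-Hochberg adjustment over all 68845 regions, 37 of 80 (46.3%) were called, 36 lower in C3 and 1 higher, at a rate of 6.73% over all regions (5.48% lower and 1.26% higher). A region was called where the adjusted p was under 0.05 both with all regions and without the lowest 25%. The p printed for a region is that with all regions, unless stated otherwise. The median log2 difference was -1.12, against -0.87 at other strong regions and 0.04 over all regions. H3K9me3 regions at other strong regions were called in 359 of 820 cases (43.8%), so the share is not particular to members.

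The call count rested on the pair of OSKM libraries and fell after quantile normalization, as did the count over all regions. With libraries centred on a common median, 33 of the 80 and 4577 of all regions were called. Without the first OSKM library the median log2 difference at the 80 regions was -1.06, and without the second it was -1.20. After quantile normalization limma called 0 of the 80 (30 at an unadjusted p under 0.05, with a median log2 difference of -0.97) and 7 of all regions. With edgeR on the recovered reads 47 of the 80 and 7184 of all regions were called. C3 had its own input pair, so the line and the input cannot be told apart.

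The called region with the smallest adjusted p lay at Gm40113, a predicted gene, at chr3:103199638-103203150. Its H3K9me3 values were 106 and 97.2 in C3 and 519 and 456 in OSKM, a log2 difference of -2.25 (SE 0.16). The limma adjusted p was 2.14e-15 over all regions and 8.65e-06 without the lowest 25%. Both C3 libraries were far below both OSKM libraries. In the C2 table the same region had 260 and 390 in C2 and 465 and 416 in OSKM, where the lines did not overlap but the difference was not called (-0.46, SE 0.21, limma adjusted p = 0.247). The member there was even in H3K27ac by the rule.

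Tanc1, the second strongest member, met an H3K9me3 region at its downstream end, chr2:59634624-59636077. The values were 108 and 132 in C3 against 382 and 316 in OSKM (log2 difference -1.53, SE 0.17). The limma adjusted p was 1.48e-09 over all regions and 2.64e-04 without the lowest 25%. In C2 the values were 122 and 224 against 343 and 289 in OSKM (-0.92, SE 0.27, limma adjusted p = 0.149). Both C2 and C3 lay below OSKM there, and only the C3 difference passed. At Etl4, a gene with 4 members, the region chr2:20591328-20594770 had 267 and 243 in C3 against 742 and 553 in OSKM (-1.33). Cldn14, a claudin of tight junctions, had 11.2 and 22.8 against 103 and 154 (-2.89), and Gm11687 had 26.7 and 10.6 against 179 and 136 (-3.13). At Ino80dos, antisense to a subunit gene of the INO80 remodeller, H3K9me3 at 2 neighbouring regions fell by 2.24 and 1.71 on the log2 scale. None of the 10 members with the smallest adjusted p held a listed start site. The 1 region called higher, named after its value was seen, was at Gm36808 with 178 and 173 in C3 against 114 and 103 in OSKM (0.69), and it was no longer called without the first C3 library or without either OSKM library.

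**Figure D5:**
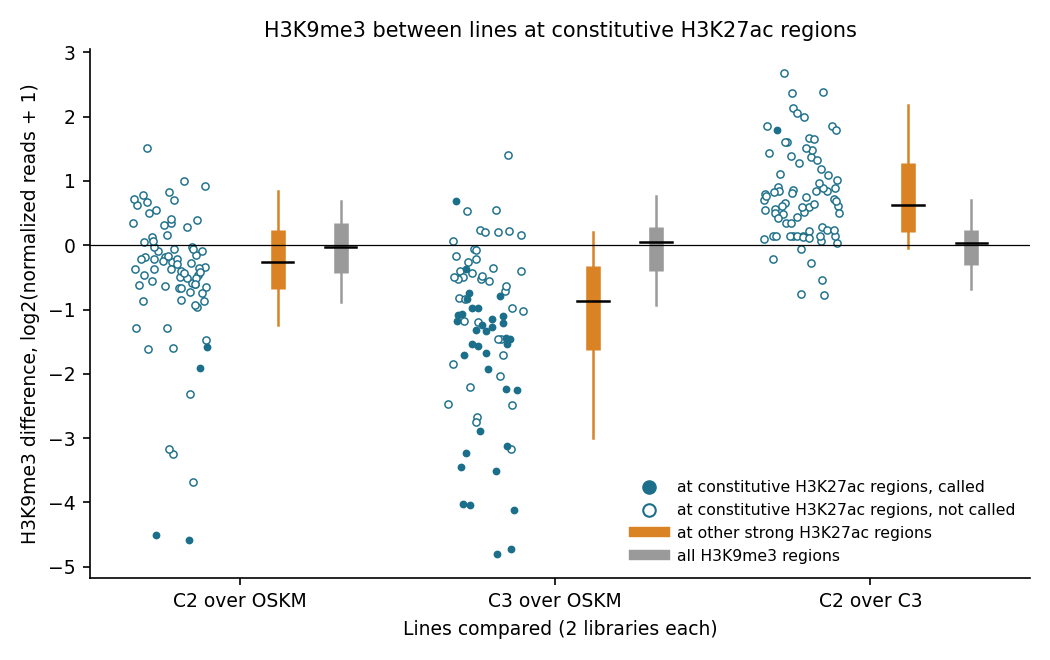
Difference in H3K9me3 between lines on the log2(value + 1) scale at each of the 80 H3K9me3 regions that overlap a member (points, filled where called), beside the median, the middle 50% and the middle 80% of H3K9me3 regions at other strong regions and of all H3K9me3 regions (bars and lines). In C3 over OSKM 37 points are called, 36 of them below 0, and 4 and 1 are called in C2 over OSKM and C2 over C3.

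In C2 against OSKM, 4 of the 80 regions were called (5%), all lower in C2, at a rate of 0.986% over all regions (0.896% lower), and 29 of 820 at other strong regions. The 4, named after their values were seen, were at Tefm, Tmbim1, Jpt1 and St8sia1, and each was called lower in C3 too. Without the first OSKM library 0 of the 4 stayed called, and without the second 1 did, at St8sia1. The Tefm and Tmbim1 regions were at the lowest value of the table in both C2 libraries (1.15 and 1.39), worth 1 read, against 62.2 and 46.3 in OSKM at Tefm and 54.5 and 47.0 at Tmbim1. Jpt1 had 37.8 and 32.1 against 112 and 101 (-1.58, SE 0.28, limma adjusted p = 0.0423). St8sia1, a sialyltransferase of ganglioside synthesis, had 52.7 and 25.1 against 158 and 123.4 (-1.91, SE 0.36, limma adjusted p = 0.0496). The C2 and C3 comparisons share the OSKM libraries. The median log2 difference was -0.36 for C2. The count went to 0 with a pseudocount of 8 or quantile normalization, where 20 and 10 of all regions were called. Without the first C2 library the median log2 difference was -0.11, and without the second it was -0.67.

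C2 and C3 were also compared with each other. The Gm40113 region was the 1 called of 80 (1.25%), at a rate of 0.100% over all regions (0.0349% higher in C2), with 227 and 345 in C2 and 84.6 and 75.8 in C3 (log2 difference 1.79, SE 0.22, limma adjusted p = 7.26e-08). The median difference over the 80 was 0.70, higher in C2, against 0.03 over all regions. edgeR called 11. The differences at the remaining regions therefore did not pass the limma call in this direct comparison, and the smaller number called in C2 than in C3 against OSKM was not tested as such.

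HA peaks, which mark candidate sites of the tagged artificial factors on day 20, an earlier stage than the iPS lines, rarely met members. Of the peaks on the rule's chromosomes, 1 of 10378 and 3 of 37465 in the C2 libraries overlapped a member (0.00964% and 0.00801%), and 1 of 9007 and 1 of 18957 in the empty-vector libraries (0.0111% and 0.00528%). The Wilson 95% intervals ran from 0.0017% to 0.0546%, 0.00272% to 0.0235%, 0.00196% to 0.0629% and 0.000931% to 0.0299%, and cover counting error only. The mean share differed by 0.000633 percentage points between C2 and empty vector, two-sided exact permutation p = 1, where 2 against 2 libraries cannot go below 0.333. Peaks per megabase were 0.135 and 0.405 in members for C2 and 0.135 and 0.135 for empty vector, against 4.94, 16.9, 2.40 and 8.50 over all H3K27ac regions. At the other strong regions they were 0.318 and 0.665 for C2 and 0.231 and 0.260 for empty vector. Where only peaks with a -log10 q of 5 or more were kept, the mean share was 0.0167% in C2 and 0 in empty vector, and at members with a ratio below 1.3 it was 0.00615% and 0, each with an exact permutation p of 0.333, the smallest possible here.

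The 4 members with a C2 peak were those at Gm11687, Cyb561, a cytochrome of secretory vesicles, Rps21, a ribosomal protein, and chr7:28652690-28657720, and each had it in 1 of the 2 libraries. Empty-vector peaks lay at Tchh and at chr6:99853767-99857742. No member had a peak of both C2 libraries. The HA libraries were shallow, with 1629753 to 3896935 tags kept after redundant tags were removed.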

How the data were processed

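Chromatin immunoprecipitation libraries were sequenced, aligned to mm10 with Bowtie2 2.2.5, handled with CASAVA 1.8.2 and SAMtools 1.3 and compared with DiffBind 1.16.2, per the submitters' processing notes. Per the file headers, MACS 2.1.0.20150731 called the histone peaks and MACS 2.1.1.20160309 those of HA, with 0.01 as the q-value limit. The authors deposited a normalized signal per region and library (DiffBind reads in merged regions), with a log2 fold and a p-value of their own. The deposited peak lists give a fold enrichment ratio and a −log10 q per peak. Whether input was subtracted from the signal is not given in the sources used here.

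Dividing each column by its lowest value gave whole reads for 100% of values (tolerance 1e-06). H3K27ac libraries had 7033486 to 17649231 reads in regions and H3K9me3 libraries 3412599 to 8548902. H3K9me3 was tested with limma 3.58.1 (trend) on log2(value + 1), 2 libraries against 2, with edgeR 4.0.16 on recovered reads as an alternative. The H3K27ac values chose the members, so they were not tested. Overlap meant at least 1 shared base, and HA shares were compared with an exact permutation test. R 4.3.3 and Python 3.11.15 were used. The limma and edgeR scripts were tested on simulated data.

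Gene extents, start sites, promoters and microRNAs came from RefSeq tables for GRCm38.p6, whose coordinates are those of mm10, matched by position. The promoter table lists none for chromosome 18, so shares of regions holding a start leave that chromosome out. A start was listed for 15732 of the 19622 protein-coding genes on the rule's chromosomes, so a member without a listed start may still lie at one. The members and the lists were chosen with earlier results of these data known. Members were named as the 10 strongest, the 5 most even, the 5 widest, up to 3 on each side of a threshold, up to 4 per gene list (all for lists of 20 genes or fewer) and up to 10 at called H3K9me3 regions, smallest adjusted p first; up to 10 were to be named at HA peaks of both C2 libraries and none was found. Exceptions are marked in the text. The p-values measure the spread between libraries, which may be technical. Those of limma also rest on a variance shared over all regions, as each line had only 2 libraries.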

Additional observations from a re-analysis of the deposited data

How the results depend on the processing

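The number of members followed the thresholds: 3706 at a minimum of 100, 532 at 400, 437 at a ratio below 1.3 and 6146 below 2, 3338 by the C2 table alone and 4630 by the C3 table alone. It was 2095 to 3673 with 1 H3K27ac library left out, the most without the second C2 library. Scaling to equal totals gave 4637, of which 1398 were members, and to equal medians over strong regions 4919, of which 1238 were. The share within 2500 bp of a gene was 84.4% by the C2 table alone, 88.7% after median scaling, 81.9% for overlap with the gene itself, 90.6% within 5000 bp and 85.2% to 87.9% with a library left out. The share with an H3K9me3 region was 7.33% at a minimum of 400, 2.29% at a ratio below 1.3, 5.94% below 2, 5.21% and 6.61% by the C2 and C3 tables alone, 6.02% after median scaling and 3.66% to 5.45% with a library left out. A C2 HA peak lay at 0.564% of members at a minimum of 400, against 0.209%.

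Of the 80 H3K9me3 regions, the C3 against OSKM calls were 0 after quantile normalization and 14 to 48 with a library left out. At the median-scaled members, 145 of 345 regions were called in C3 against OSKM, 139 of them lower. The C2 against OSKM calls were 0 with a pseudocount of 8 (limma, 21 at an unadjusted p under 0.05), 0 after quantile normalization (12 at an unadjusted p under 0.05), 8 by the authors' deposited table and 2 to 35 with a library left out, against 4 by limma and 4 by edgeR. The C2 against C3 calls were 7 in the fit over all regions alone (403 over all regions) and 11 by edgeR (559). They were 3 by the authors' deposited table (685) and 0 after quantile normalization (8 at an unadjusted p under 0.05). With a library left out the median log2 difference for C2 over C3 was 0.41 to 0.95. A library left alone in its line was assumed to vary like the others. After quantile normalization, calls over all regions were 7 in C3 against OSKM, 10 in C2 against OSKM and 4 in C2 against C3. The causes were not tested.

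With the replicate number as a block, 14, 48 and 10 of the 80 regions were called in C2 against OSKM, C3 against OSKM and C2 against C3. Over all 68845 regions the block fit called 2895, 6868 and 466. The deviations of same-numbered libraries correlated at -0.02, 0.06 and 0.07. The labels do not say whether same-numbered libraries had a culture or batch in common, and these correlations cannot tell. The HA difference of 0.000633 percentage points was -0.00819 when a member had to cover the larger part of the peak, and -0.00228 to 0.00355, also below 0 at -0.000181 without the first C2 HA library, with a library left out. Of HA reads, a share of 0.92 to 0.94 was redundant.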

Other observations

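Members were spread over the chromosomes unevenly. On most chromosomes between 17.5% and 25.1% of strong regions were members, the highest share on chromosome 2 (191 of 760), but on chromosome 18 it was 18 of 227 (7.93%) and on chromosome 19 it was 36 of 264 (13.6%). After scaling each library to the same median over strong regions, the shares were 54.9% on chromosome 2, 48.4% on chromosome 18 and 46.6% on chromosome 19. In strong regions of chromosomes 18 and 19 the first C2 library was higher than the second by a median log2 ratio of 0.44 and 0.49. Chromosome 2 had the lowest ratio, 0.25. Chromosomes 15 and 12 had 0.42 and 0.40, with 19.3% and 17.5% of strong regions as members. A link between this ratio and the member share was not tested.

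A few genes carried several members. Rab27a, a small GTPase of vesicle transport, had 5 members among 8 strong regions, Tanc1 5 of 6 and Sipa1l3 5 of 11. Tcf7l1, a transcription factor of the Wnt pathway that is active in pluripotent cells, had 4 of 6, Rnf220 4 of 7, Pitpnc1 4 of 12 and Etl4 4 of 13.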
